A study of Mus musculus with 4 samples.

Results

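The genes described here carry the insulin signal from its receptor to the FoxO transcription factors, together with genes known to respond to FoxO. Their messenger RNA was measured in whole inguinal mammary glands taken from 10-day-old mice. The members were selected on the measured difference between knockout and wild-type glands in these same arrays, after earlier results were known. That difference is therefore given for each of them as a description, with no test. Of 10 listed genes (Insr, Irs1, Irs2, Pik3r1, Akt2, Foxo1, Foxo3, Klhl24, Txnip and Cited2), 9 had at least 1 probe set assigned to a single gene, out of 17097 genes on the array, and these 9 had 21 probe sets in all. Irs2 was not analysed here.

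The 4 arrays came from Mt1-mmp(+/+) wild-type mice (2 arrays) and Mt1-mmp(-/-) knockout mice (2 arrays), littermates on an outbred Swiss Black background, each array labelled as a biological replicate. Mt1-mmp, listed on the array as Mmp14, encodes a membrane-bound protease that cuts collagen. The knockout is global, so every cell of the animal lacked the gene and the gland cannot be told apart from the rest of the body as the origin of a difference. No purification of cells was described, and whether a sample pooled several animals is not given in the labels.

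Insulin binds a receptor kinase on the cell surface, which phosphorylates the adaptor proteins IRS1 and IRS2. These recruit phosphoinositide 3-kinase, whose lipid product activates the kinase Akt. Akt drives glucose uptake and fat synthesis and phosphorylates the FoxO factors, which then leave the nucleus. When insulin falls, FoxO factors return to the nucleus and raise transcription of genes of fasting and growth arrest, and the insulin receptor and IRS2 genes are among their known targets. Fat cells, abundant in the mammary fat pad of young mice, are a classic target of insulin.

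Values are log2 expression values made by the authors with RMA, so a step of 1 is a 2-fold change, and values of different probe sets cannot be set against each other as amounts of RNA. A probe set counted as bright when its mean over the 4 arrays was at least 4.94, the median of all probe sets. Of the 9 genes, 8 were bright in their leading probe set, which is the brightest of the gene, and Foxo1 was not. In the targeted gene Mmp14 the brighter probe set gave wild-type values of 8.92 and 8.73 against knockout values of 5.83 and 5.68. Over 11078 bright genes the median gap between replicates was 0.21 for the 2 knockout arrays and 0.08 for the 2 wild-type arrays.

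The receptor gene and the adaptor gene Irs1 were both higher in the knockout. Insr, the insulin receptor gene, had wild-type values of 8.19 and 8.35 and knockout values of 9.47 and 9.65. Both knockout arrays lay above both wild-type arrays, by at least 1.11, and the difference was 1.28 ± 0.12 on the log2 scale (SE from the spread within groups, n = 2 per group), or 2.43-fold. Irs1, which encodes the main adaptor of the receptor in fat and muscle, had wild-type values of 9.71 and 9.80 and knockout values of 10.70 and 10.63. The groups again did not overlap, and the difference of 0.91 ± 0.06 amounted to 1.88-fold. Of all bright genes 1.08% had a larger rise than Insr and 2.40% a larger rise than Irs1.

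The other 2 probe sets of Insr were dim, with means of 4.60 and 4.03, and did not carry the difference. The first gave -0.01 ± 0.12 with overlapping groups, and the second gave 0.11 ± 0.02 with both knockout arrays above both wild-type arrays. The Insr difference therefore rests on a single bright probe set. With the mean of its 3 probe sets in place of the brightest it was 0.46. Irs1 had 1 single-gene probe set, so no second measurement of its transcript was at hand.

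**Figure D1:**
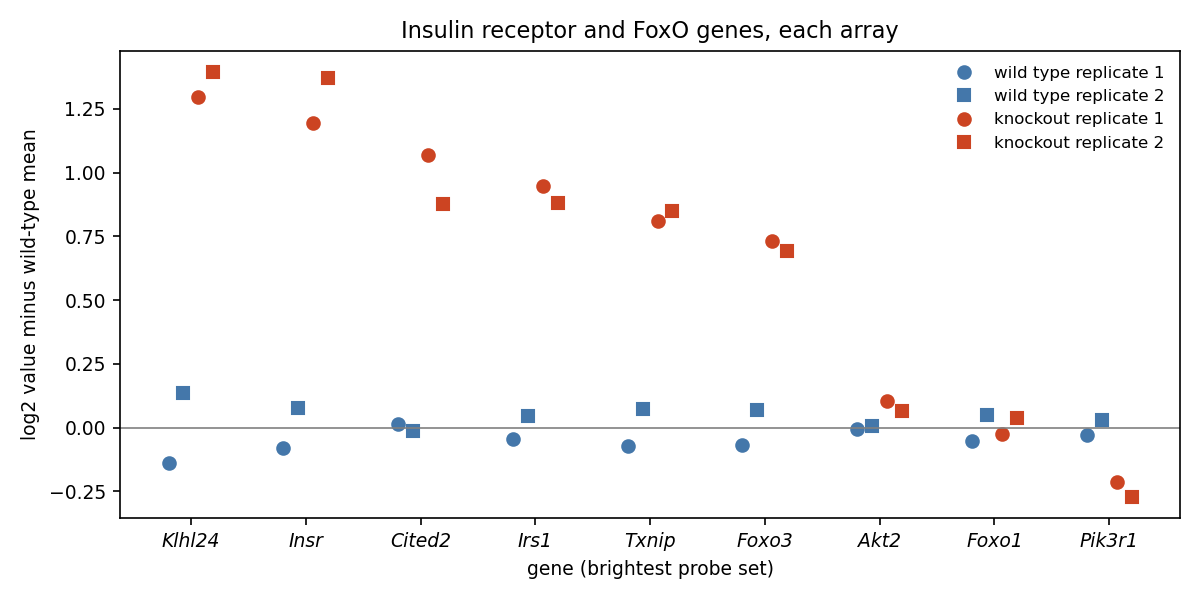
Log2 value of each array minus the wild-type mean (vertical axis) for the brightest probe set of the 9 genes (horizontal axis), ordered by the difference between genotypes. Blue symbols are wild-type and red symbols knockout arrays, with circles for replicate 1 and squares for replicate 2. In Klhl24, Insr, Cited2, Irs1, Txnip and Foxo3 both knockout arrays stand at least 0.69 above the wild-type mean, whereas Akt2 and Foxo1 stay near 0 and Pik3r1 lies below it.

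Downstream of the adaptors the picture was different. Pik3r1, which encodes the regulatory subunit that docks phosphoinositide 3-kinase on IRS proteins, was lower in both knockout arrays in all 4 of its probe sets. The brightest gave wild-type values of 9.43 and 9.49 and knockout values of 9.25 and 9.19, a difference of -0.24 ± 0.04, or 1.18-fold. Of all bright genes 25.6% had a larger fall, and 32.5% were lower without overlap. A less bright set gave 7.50 and 7.05 in wild type, compared with 6.49 and 6.43 in the knockout, a difference of -0.81 ± 0.23. There the wild-type arrays themselves lay 0.46 apart, but the groups remained separate. The remaining probe sets differed by -0.32 ± 0.19 and -0.20 ± 0.01. The size thus depended on the probe set, with -0.39 for the mean of all 4, while the direction was shared.

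Akt2, the Akt kinase gene most tied to insulin action in fat and muscle, was nearly level. Its brightest probe set had wild-type values of 9.45 and 9.46 and knockout values of 9.55 and 9.52, a difference of 0.08 ± 0.02. The groups did not overlap, but 34.7% of all bright genes had a larger rise. In the less bright set the wild-type arrays gave 6.90 and 7.10 and the knockout arrays 7.53 and 7.13. Here knockout replicate 2 lay barely above the wild-type arrays, and the difference was 0.33 ± 0.23. The leading probe set can match several transcripts, and its difference was 0.21 with the mean of both probe sets, 0.16 after cyclic loess, 0.14 after quantile normalisation and 0.06 after median centring.

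Of the FoxO genes, Foxo3 was higher and Foxo1 could not be judged. Foxo3 encodes a factor known for stress resistance and muscle wasting. Its leading probe set had wild-type values of 7.67 and 7.81 and knockout values of 8.47 and 8.43, a difference of 0.71 ± 0.07, or 1.64-fold. In a further bright probe set the wild-type arrays stood at 6.83 and 6.76 and the knockout arrays at 7.54 and 7.63, a difference of 0.80 ± 0.06. Both measurements separated the groups and were close in size, while the third probe set of Foxo3 was dim (mean 4.23) and differed by -0.01 ± 0.05. Foxo1, the FoxO gene best known in liver and fat, had only a dim probe set. It had wild-type values of 4.41 and 4.51 and knockout values of 4.43 and 4.50, so the groups overlapped below the brightness threshold.

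The FoxO-linked genes Klhl24, Txnip and Cited2 were all higher in the knockout. Klhl24 encodes an adaptor of a cullin ubiquitin ligase and showed the largest difference of the members. Its brightest probe set had wild-type values of 7.60 and 7.87 and knockout values of 9.03 and 9.13, a difference of 1.35 ± 0.14, or 2.54-fold. In a set of nearly the same brightness wild type stood at 7.69 and 7.65 and the knockout at 9.01 and 8.73, a difference of 1.20 ± 0.14. In both, the lowest knockout array lay more than 1 above the highest wild-type array, by 1.16 and 1.04. A dim probe set (mean 4.31) differed in the same direction by 0.25 ± 0.06.

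Txnip encodes an arrestin-like protein that binds thioredoxin and restrains glucose uptake. It had wild-type values of 11.09 and 11.23 and knockout values of 11.97 and 12.01, a difference of 0.83 ± 0.08, or 1.78-fold. Its less bright set gave 8.45 and 8.46 for wild type and 9.55 and 9.17 for the knockout, a difference of 0.90 ± 0.19. Both probe sets kept the genotypes apart, although the knockout arrays differed more in the latter.

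Cited2 encodes a transcriptional coregulator that competes with hypoxia-inducible factor for its coactivators. It had wild-type values of 8.04 and 8.02 and knockout values of 9.10 and 8.91, a difference of 0.97 ± 0.10, or 1.96-fold. Its other probe set was much dimmer, with 5.04 and 4.96 for wild type and 6.03 and 6.02 for the knockout, a difference of 1.02 ± 0.04. The 2 probe sets of Cited2 thus differed by nearly the same amount at quite different brightness.

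**Figure D2:**
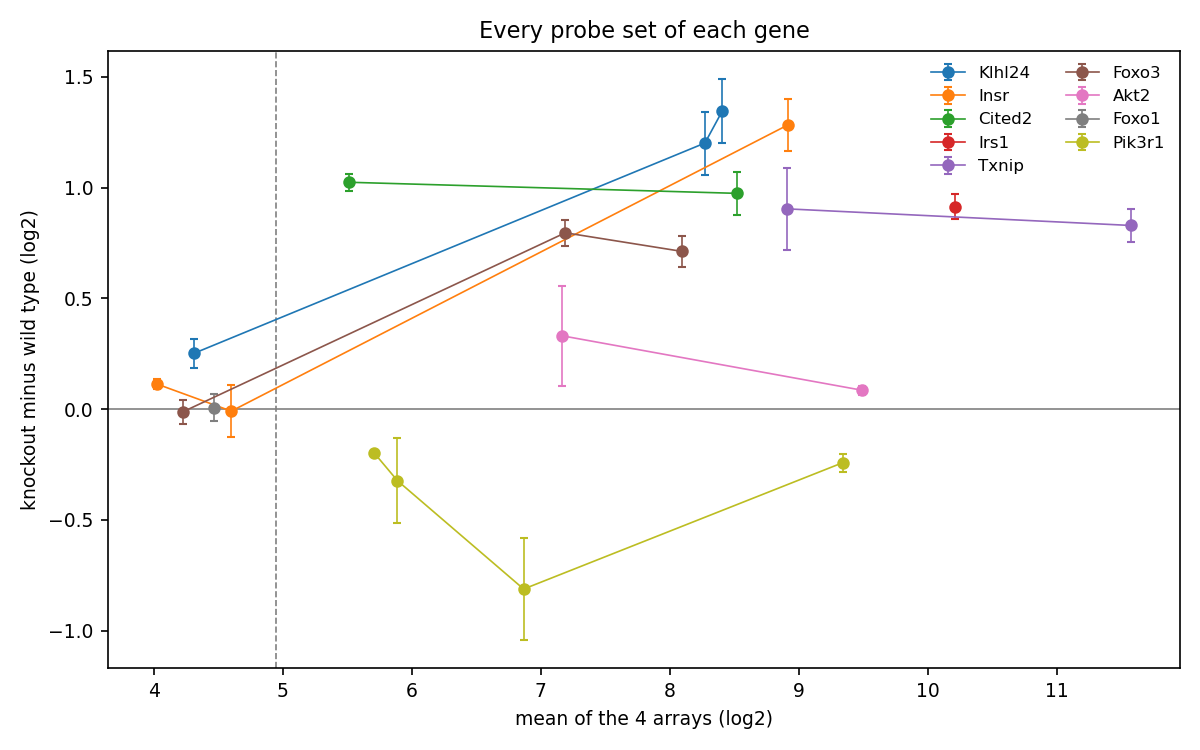
Difference between knockout and wild type on the log2 scale (vertical axis, bars are the SE, n = 2 per group) against the mean of the 4 arrays (horizontal axis, log2) for all 21 probe sets, joined by gene. To the right of the dashed brightness limit at 4.94, probe sets of a gene lie on the same side of 0, and the 5 to its left lie between -0.01 and 0.25.

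Of the 21 probe sets 16 were bright. Among these 12 had both knockout arrays above both wild-type arrays, 4 (those of Pik3r1) had both below, and 0 overlapped. Of the 8 bright genes 7 were higher and 1 was lower without overlap, and 2, Insr and Klhl24, were at least 2-fold higher. Among all 11078 bright genes the groups did not overlap for 58.8%, with 26.3% higher and 32.5% lower in the knockout, and 1.21% were at least 2-fold higher without overlap. Since the members were chosen by this contrast, nothing is read from their count. The median difference was 0.87 for the 8 members and -0.02 for all bright genes. A choice by this contrast favours genes whose replicates lie close. In the leading probe sets of the members, knockout arrays lay between 0.04 (Txnip) and 0.19 (Cited2) apart and wild-type arrays at most 0.27 apart (Klhl24).

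Markers of other tissues differed between the knockout arrays. In knockout replicate 2 skeletal muscle markers exceeded their wild-type mean by 5.61, and in knockout replicate 1 they were 0.73 below it (median of 13 bright markers, of which all 13 lay above both wild-type arrays in knockout replicate 2 and 1 did in knockout replicate 1). Their median level was wild-type values of 4.75 and 6.48 and knockout values of 4.73 and 11.83, and Myh2 was dim. In knockout replicate 1 epidermis and hair follicle markers exceeded theirs by 3.15 (9 of 9 bright markers above both wild-type arrays) and in knockout replicate 2 they were 1.29 below it, with median levels of wild-type values of 6.33 and 7.67 and knockout values of 9.79 and 4.73. Krt1, Flg and Dsg1a were dim. The median of the 8 members exceeded wild type by 0.88 in knockout replicate 1 and by 0.86 in knockout replicate 2.

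In other marker lists some or all markers lay outside the wild-type arrays, in the same direction in both knockout arrays. Mast cell markers were higher in both (5 of 5, medians 0.73 and 1.08). So were 5 of 8 luminal epithelial markers (0.93 and 0.74), both Schwann cell markers (0.64 and 0.90) and 3 of 6 basal epithelial markers (0.76 and 0.29). The luminal median itself stood at 0.55 and -0.55 in the wild-type arrays. Its level in knockout replicate 2 (7.62) lay below that in wild-type replicate 1 (7.68). Erythroid markers were lower (4 of 4, medians -1.61 and -1.16), as were 5 of 7 macrophage markers (-0.41 and -0.30) and 6 of 7 brown adipocyte markers (-0.83 and -1.04). The median level of the brown adipocyte markers was 11.06 and 11.22 in wild type, 10.31 in knockout replicate 1 and 7.37 in knockout replicate 2. White adipocyte markers had medians of -0.04 and -0.32, with 3 of 5 lower in both and median levels of wild-type values of 13.10 and 13.12 and knockout values of 13.11 and 12.87. The part of these markers in the members' values was not tested. In a whole gland, a change in the number of cells of a type and a change in RNA per cell cannot be told apart.

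**Figure D3:**
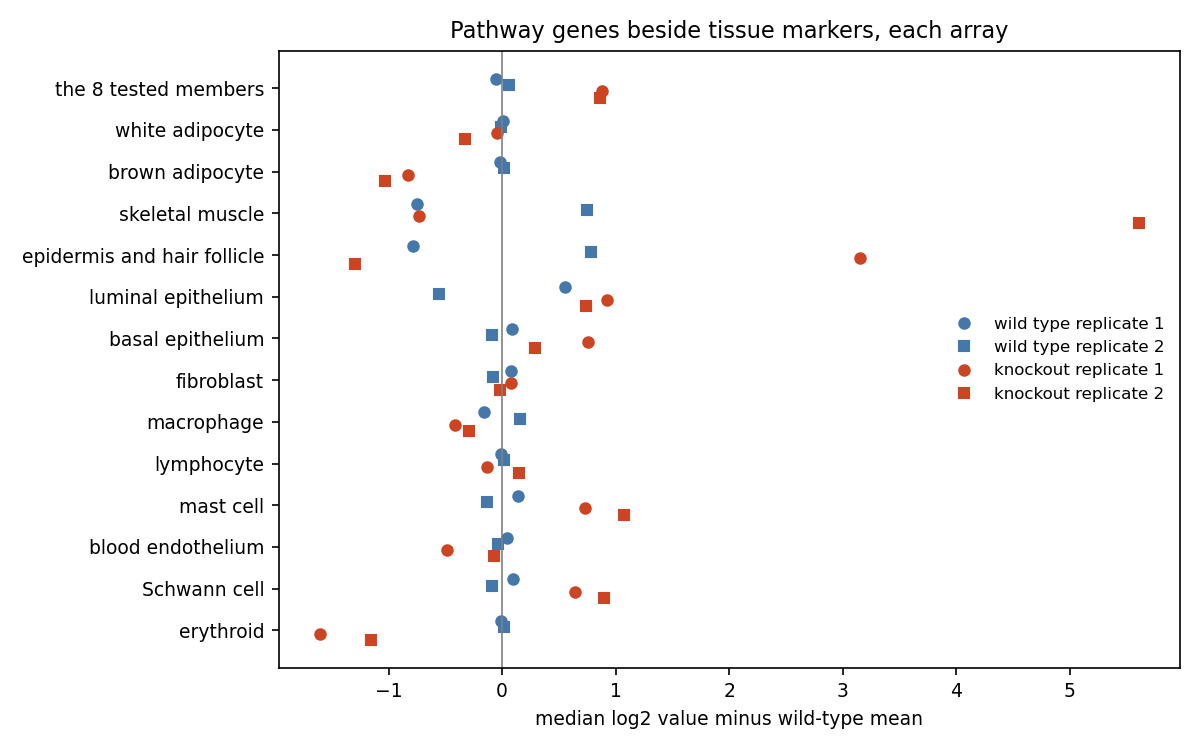
Median log2 value minus the wild-type mean (horizontal axis) in each array for the 8 bright members (top row) and for 13 lists of cell type markers. Blue symbols are wild-type and red symbols knockout arrays, with circles for replicate 1 and squares for replicate 2. The members stand at 0.88 and 0.86 in the knockout arrays, in which muscle markers stand at -0.73 and 5.61.

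The DNA just before the start of transcription is printed for Irs1, Irs2, Txnip and Cited2, the members whose windows held at least 1 of 3 motifs searched. The sequences are the 250 bases before the RefSeq start in the build GRCm38.p6, read in the direction of the gene, at chr1:82291440-82291689 (minus strand), chr8:11008930-11009179 (minus strand), chr3:96557707-96557956 (plus strand) and chr10:17722978-17723227 (plus strand). Capitals mark matches on either strand to the FoxO core GTAAACA (read as TGTTTAC on the other strand), the insulin response core CAAAACA (read as TGTTTTG on the other) or the E-box CACGTG.
Irs1: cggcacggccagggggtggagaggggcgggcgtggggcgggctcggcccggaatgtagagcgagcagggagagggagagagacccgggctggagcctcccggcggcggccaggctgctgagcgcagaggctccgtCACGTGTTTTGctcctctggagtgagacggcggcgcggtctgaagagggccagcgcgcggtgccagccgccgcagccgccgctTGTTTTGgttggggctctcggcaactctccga
Irs2: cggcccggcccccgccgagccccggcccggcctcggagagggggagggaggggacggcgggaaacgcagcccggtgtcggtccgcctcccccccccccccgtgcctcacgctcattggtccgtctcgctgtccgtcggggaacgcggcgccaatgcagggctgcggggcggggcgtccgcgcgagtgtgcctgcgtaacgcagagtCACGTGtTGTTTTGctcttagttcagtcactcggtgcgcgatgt
Txnip: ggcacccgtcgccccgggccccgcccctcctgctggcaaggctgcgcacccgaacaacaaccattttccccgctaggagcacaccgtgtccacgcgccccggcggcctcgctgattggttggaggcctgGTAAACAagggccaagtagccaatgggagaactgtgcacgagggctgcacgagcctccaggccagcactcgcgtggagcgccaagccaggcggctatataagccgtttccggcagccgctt
Cited2: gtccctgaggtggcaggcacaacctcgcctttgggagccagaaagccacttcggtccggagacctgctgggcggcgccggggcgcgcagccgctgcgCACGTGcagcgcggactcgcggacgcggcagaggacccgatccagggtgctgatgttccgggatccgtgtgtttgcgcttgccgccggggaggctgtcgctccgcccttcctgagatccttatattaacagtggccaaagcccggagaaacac

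Txnip held a FoxO core that began 121 bases before the start. Irs1 held insulin response cores at 111 and 32 bases before the start and an E-box at 115, which shared 2 bases with the first of these cores. Irs2 held the same pair of motifs, an E-box at 44 and an insulin response core at 37 bases, with 1 base between them. Cited2 held an E-box at 153 bases. Over all 32851 RefSeq promoters of the table, 3.17% held the FoxO core, 5.56% the insulin response core and 6.02% the E-box in the same window. The table had 12 promoters of 8 members, without Insr and Klhl24. The 8 promoters of Pik3r1, Akt2, Foxo1 and Foxo3, of which Foxo3 was higher in the knockout, had no match in their windows. These matches describe the letters alone, since no binding was measured.

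The surrounding pathway was read from 10 gene lists that did not contain the members. Of 149 genes, 119 were bright and entered the limma fit. With Benjamini-Hochberg adjustment over all 11078 genes, 0 of the 119 passed 0.05, as did 0% of all genes, and the smallest adjusted p over all genes was 0.0738. At an unadjusted limma p under 0.05 there were 23 higher and 16 lower pathway genes (32.8%), against 21.8% of all genes. The groups did not overlap for 41 higher and 41 lower pathway genes (68.9%), beside 58.8% of all bright genes (26.3% higher and 32.5% lower). The counts per list stand beside those shares of all bright genes. Because the lists were chosen with earlier results of these data known, their counts and shares are a description and not a test. With 1 array left out, 52 of the 119 passed without knockout replicate 1 and 29 without knockout replicate 2, a fit in which the remaining knockout array borrows its spread from wild type. The values that follow belong to genes that did not pass with all 4 arrays.

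Around the receptor, 3 of 11 adaptor and receptor genes were higher and 6 lower without overlap, with a median difference of -0.15. Igf1r, the receptor most related to Insr, had wild-type values of 7.71 and 7.58 and knockout values of 8.41 and 9.02, a difference of 1.07 ± 0.31. Its other bright probe sets were higher by 0.91 and 0.61. Sh2b2, an adaptor that binds the activated receptor, was higher by 0.61 ± 0.16, or 0.22 with the mean of its probe sets. The phosphatase gene Ptpn11 (-0.65 ± 0.14, or -0.40 with the mean of its probe sets) and the adaptor gene Grb2 (-0.58 ± 0.19) were lower. Both lead from the receptor towards the Ras pathway. Another probe set of Grb2 differed by only -0.07.

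Genes from phosphoinositide 3-kinase to Akt were mixed, 3 higher and 3 lower of 12 without overlap, and the median difference was -0.07. Rictor, which encodes a subunit of the complex that phosphorylates Akt, had wild-type values of 6.68 and 6.73 and knockout values of 7.32 and 7.32 (a difference of 0.61 ± 0.03), and another probe set gave 0.36. The mean of all its probe sets gave 0.23. Mapkap1, which encodes another subunit of that complex, was lower by a difference of -0.48 ± 0.16 (-0.74 in its other probe set). Pik3r3, a relative of Pik3r1, was lower as well (-0.52 ± 0.13), as was Pik3c2a (-0.31 ± 0.07, or -0.11 with the mean of its probe sets). The kinase gene Akt1, chosen with its values in view, had overlapping groups (0.17 ± 0.21).

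Of 15 genes that restrain insulin signalling, 4 were higher without overlap and 4 lower, and the median difference was 0.06. Grb14, which encodes an inhibitor that binds the receptor's kinase, stood far from the rest. It had wild-type values of 8.81 and 8.98 and knockout values of 6.74 and 5.38, a difference of -2.84 ± 0.68, or 7.14-fold lower. Both knockout arrays were low, but they lay 1.35 apart, with the lower value in knockout replicate 2. In knockout replicates 1 and 2 muscle markers stood at -0.73 and 5.61 and epidermis markers at 3.15 and -1.29. The part of these markers in the Grb14 values was not tested. Grb10, its closest relative and chosen with its values in view, had 10.35 and 10.31 against 10.31 and 10.37 and overlapping groups. The phosphatase genes Inpp5k (0.68 ± 0.14) and Inppl1 (0.29 ± 0.02), whose products remove the lipid signal, were higher. Trib2 was lower (-0.50 ± 0.17, or -0.25 with the mean of its probe sets).

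Among Akt effectors 5 of 12 were higher without overlap and 4 lower, and the median difference was 0.04. The growth inhibitor gene Tsc1 (0.61 ± 0.02, 0.36 in another probe set and 0.31 with the mean of its probe sets), the translation inhibitor gene Eif4ebp1 (0.54 ± 0.08, and 0.57) and the phosphodiesterase gene Pde3b (0.58 ± 0.14), through which insulin restrains fat breakdown, were higher. Rptor, a subunit gene of the growth complex mTORC1, was lower (-0.22 ± 0.04, or -0.08 with the mean of its probe sets). The insulin-responsive glucose transporter gene Slc2a4, picked once its values were known, had overlapping groups with wild-type values of 9.25 and 9.47 and knockout values of 9.23 and 9.27.

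Of 14 FoxO relatives and regulators, 4 were higher without overlap and 4 lower, and the median difference was -0.02. Foxo4, the third member of the family measured here, was higher by 0.55 ± 0.18 (7.17 and 7.39 against 7.69 and 7.98). With the mean of its probe sets the difference was 0.28. Sgk1, a kinase gene whose product also phosphorylates FoxO, was higher by 0.50 ± 0.22. The 14-3-3 genes Ywhag (-0.41 ± 0.05) and Ywhaz (-0.46 ± 0.22), whose products hold phosphorylated FoxO in the cytoplasm, were lower in each of their bright probe sets. The other 14-3-3 genes of the list, Ywhab (-0.18 ± 0.20) and Ywhae (-0.05 ± 0.08), chosen with their values in view, had overlapping groups.

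Of 21 bright FoxO target genes 12 were higher without overlap, 4 lower and 5 overlapping, where 26.3% of all bright genes were higher and 32.5% lower. Their median was 0.34, at 0.36 in knockout replicate 1 and 0.33 in knockout replicate 2, beside -0.02 for all bright genes. Fbxo32, which encodes a ubiquitin ligase subunit induced in wasting muscle, had wild-type values of 5.68 and 5.46 and knockout values of 6.85 and 6.78, a difference of 1.25 ± 0.12. Its other bright probe sets were higher by 0.80 and 0.91. Muscle markers stood at -0.73 and 5.61 in the knockout arrays, and their part in these values was not tested. Trim63, a muscle ligase gene of the same programme picked once its values were known, was dim on average and overlapped, with 3.83 and 3.89 in wild type, 3.79 in knockout replicate 1 and 7.10 in knockout replicate 2.

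Further FoxO targets that were higher included the mitophagy gene Bnip3 (0.71 ± 0.07) and the cell cycle inhibitor gene Cdkn1b (0.62 ± 0.06, or 0.31 with the mean of its probe sets). The autophagy gene Gabarapl1, picked once its values were known, had wild-type values of 7.51 and 7.71 and knockout values of 8.31 and 8.82 (0.95 ± 0.27, and 1.05 in another probe set). Others went the opposite way. The repressor gene Bcl6 had wild-type values of 8.38 and 8.53 and knockout values of 7.83 and 7.51 (-0.78 ± 0.18, or -0.49 with the mean of its probe sets). The superoxide dismutase gene Sod2, named afterwards, was lower by a difference of -0.58 ± 0.13.

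Metabolic genes that insulin is known to induce, many of them for fat synthesis, were lower, 8 of 9 without overlap and 0 higher. Their median was -1.60, at -0.83 in knockout replicate 1 and -2.51 in knockout replicate 2, so the size depended on the array. In these arrays muscle markers stood at -0.73 and 5.61, brown adipocyte markers at -0.83 and -1.04, and white adipocyte markers at -0.04 and -0.32. The part of these markers in the values was not tested. The glucose-trapping enzyme gene Hk2 had wild-type values of 9.27 and 9.41 and knockout values of 7.91 and 8.79 (-0.98 ± 0.45), and was the lower in knockout replicate 1. The desaturase gene Scd1 had 13.21 and 13.35 against 11.32 and 9.56 (-2.83 ± 0.88, and -4.09 in its other probe set). Fasn (-2.68 ± 0.74) and Acly (-1.11 ± 0.07, and -1.68), which lead from citrate to fatty acid, were lower too.

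**Figure D4:**
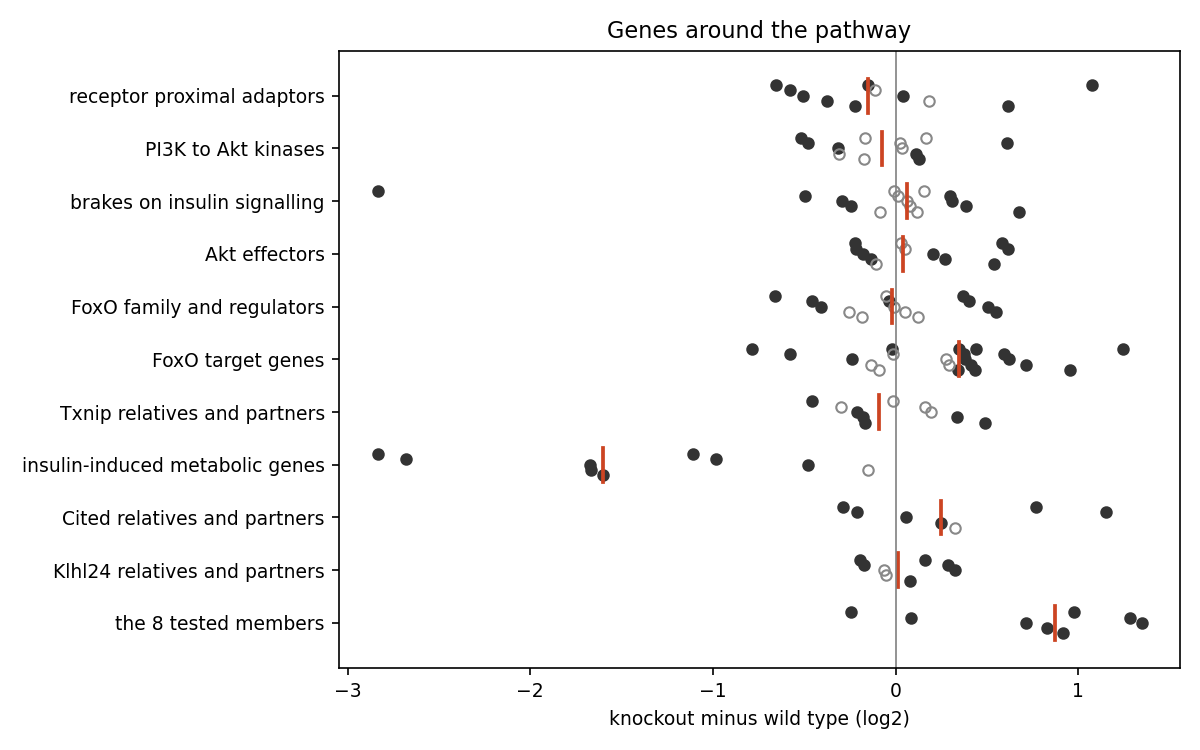
Difference between knockout and wild type on the log2 scale (horizontal axis) for the bright genes of each pathway list and for the 8 bright members (bottom row). Filled points are genes whose groups do not overlap, open points genes whose groups do, and red bars are medians, which run from -1.60 for insulin-induced metabolic genes to 0.34 for FoxO target genes, and stand at 0.87 for the members.

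Relatives and partners of the FoxO-linked members were mixed in direction. Around Txnip 2 of 10 bright genes were higher without overlap and 4 lower, with Arrdc1 at 0.49 ± 0.26 (0.27 and -0.16 in its other bright probe sets) and the transcription factor genes Mlxip (0.34 ± 0.19) and Mlx (-0.46 ± 0.01) going opposite ways. Txnrd1, the thioredoxin reductase gene, differed by -0.18 ± 0.02. Arrdc4, the arrestin gene most often described with Txnip and picked once its values were known, had wild-type values of 7.19 and 7.30 and knockout values of 7.17 and 6.98. Around Cited2, 4 of 7 genes were higher and 2 lower. These included its AP-2 partner genes Tfap2b (1.15 ± 0.38), Tfap2a (0.77 ± 0.45, or 0.36 with the mean of its probe sets) and Tfap2c (0.25 ± 0.08). The first pair was highest in knockout replicate 1, the array with epidermis markers at 3.15, whose part in these values was not tested. Hif1a was lower (-0.21 ± 0.09, or -0.12 with the mean of its probe sets). Around Klhl24, 4 of 8 were higher and 2 lower, within 0.32 of 0 in either direction. These included Klhl7 (0.32 ± 0.09), Klhl22 (0.29 ± 0.03), Rbx1 (-0.17 ± 0.04) and Klhl20 (-0.20 ± 0.09, or -0.11 with the mean of its probe sets).

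The genes whose values over the 4 arrays ran closest to Klhl24 were Agt, Slc8b1 and Ivns1abp, at root mean square distances of 0.05, 0.07 and 0.08 (log2, each gene centred on its wild-type mean). Agt, the angiotensinogen gene, had wild-type values of 6.32 and 6.47 and knockout values of 7.64 and 7.81. Those closest to Pik3r1, the member with the largest fall, were Ttc13, Brk1 and Ubap1 at 0.01 each. With 4 arrays such closeness is a description of these samples.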

How the data were processed

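RNA of 4 samples of whole mammary gland was hybridised to 1 Affymetrix mouse array each. The authors deposited log2 expression values made with RMA in affy, per the submitters' processing notes, with no version given. The log2 scale follows from their range, 3.16 to 13.7, with array medians of 4.92 to 4.98. Because RMA equalises the arrays, a change shared by most genes is hidden. The number of arrays limits the precision.

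Of 45141 probe sets 28898 were assigned to 1 gene in the array annotation, 551 to several, and the rest to none. Only the first kind was named. The brightest probe set per gene was used, and genes with a mean of at least 4.94 were fitted with limma 3.58.1 in R 4.3.3 (lmFit, eBayes, no covariate, Benjamini-Hochberg adjustment at 0.05). P-values measure only the spread between these samples. The fit was tested on simulated data. Standard errors printed with differences come from the spread within groups, not from limma.

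The members and gene lists were chosen with earlier results of these data known. The naming rule took all members, Mmp14, up to 4 genes per list with the smallest limma p among those whose groups did not overlap, and the 3 genes closest to the members with the largest rise and fall. Genes named outside it are said to be so. List genes without a single-gene probe set were not analysed here. Promoter sequences came from RefSeq (GRCm38.p6).

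Alternatives were other brightness filters, averaging a gene's probe sets, dropping those that may match several transcripts, 3 scalings, a trend or robust prior, array weights, a block by replicate number, and omission of each array in turn.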

Additional observations from a re-analysis of the deposited data

How the results depend on the processing

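With limma 0 genes passed under each alternative that kept all 4 arrays. With 1 array left out, the number of genes that passed ran from 0 (without either wild-type array) to 4180 (without knockout replicate 1), with 1299 without knockout replicate 2, and the number of pathway genes from 0 to 52. A fit with 1 knockout array takes its spread from the 2 wild-type arrays alone. Their median gap was 0.08, against 0.21 for the knockout arrays. The counts with 1 array left out are therefore not read as a result. With the replicate number as a block 0 genes passed. The labels do not say that equal numbers mark littermates, and the single correlation of same-numbered arrays' deviations was -0.09.

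All 8 bright members kept their groups apart under each filter, scaling and left-out array. Dropping probe sets that may match several transcripts removed both probe sets of Akt2, and the other 7 members stayed apart. Member differences moved by more than the spread within groups in 14 of 71 comparisons with other settings and in 0 of 36 with an array left out, and no bright member changed direction. The pathway genes named by the rule kept their direction throughout, but 16 of 40 moved by over 1.5 times where all probe sets of a gene were averaged. So did 5 without knockout replicate 2 (Arrdc1 to 0.25, Mlxip to 0.17, Sgk1 to 0.28, Ywhaz to -0.24 and Tfap2a to 1.20) and 2 without knockout replicate 1 (Hk2 to -0.54 and Tfap2a to 0.34). Another 2 did without wild-type replicate 1 (Hif1a to -0.121 and Klhl20 to -0.105). After cyclic loess 2 did (Hif1a to -0.123 and Rbx1 to -0.082), and after quantile normalisation 1 did (Rbx1 to -0.091). Outside the rule Akt1, Grb10 and Trim63, whose groups overlapped, stood at -0.05, -0.02 and -0.07 in knockout replicate 1 alone, below 0 and not above it. Ywhab stood at 0.01 in knockout replicate 1 alone and Ywhae at 0.01 in knockout replicate 2 alone, above 0 and not below it. The 4 arrays, and the low signal of Foxo1, limit what can be said.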
